A study of Homo sapiens with 11 samples.

Results

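Genomic sites were described at which the estrogen receptor (ER) was called after estradiol alone and the glucocorticoid receptor (GR) was called after dexamethasone alone. They were chosen by 1 rule: an ER peak of the estradiol list had to overlap a GR peak of the dexamethasone list by at least 1 bp in hg19. Of 3560 estradiol ER sites, 357 met it (10.0%, 95% exact interval 9.06 to 11.1 over peaks), and they overlapped 364 of the 1815 dexamethasone GR sites (20.1%, 18.2 to 22.0). These 357 sites are called shared sites below, each counted once as an ER site.

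The data came from Ishikawa cells, an established human endometrial cancer line, grown in hormone-stripped serum before treatment. ER was profiled by chromatin immunoprecipitation and sequencing after 1 h of 10 nM estradiol, and GR after 1 h of 100 nM dexamethasone, a synthetic glucocorticoid. Both receptors were also profiled after 1 h of the 2 hormones together at those doses, called the combination. Acetylated lysine 27 of histone H3 (H3K27ac) was profiled after 8 h of vehicle (DMSO), estradiol, dexamethasone or the combination. Each group held 1 library, so no replicate spread and no p-value can be given. All intervals are 95% intervals over peaks and cover counting error only. Usable tags ranged from 5206574 to 8508828 in the 4 receptor libraries and from 9034395 to 18508574 in the 4 H3K27ac libraries. The vehicle ER and GR samples were not analysed here, so the binding at these sites before hormone was not examined.

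ER and GR are nuclear receptors that enter regulatory DNA when their ligand binds. ER recognises estrogen response elements, and GR recognises glucocorticoid response elements, a palindrome with a different half-site. Both receptors also reach DNA by way of other factors, and both tend to occupy chromatin that is already accessible. H3K27ac marks active promoters and enhancers, on the nucleosomes beside the occupied DNA rather than on the factor-bound stretch itself. Estrogen drives growth of the endometrial epithelium, and glucocorticoids modify that response in the uterus. The estradiol and dexamethasone lists come from different cultures, so a shared site is a place that each receptor can occupy, not a place where both were measured at once.

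Most shared sites were simple pairs of 1 ER peak and 1 GR peak. There were 367 overlapping pairs, 341 shared sites lay in 1 to 1 pairs, 10 ER sites met 2 GR sites and 3 GR sites met 2 ER sites. The overlap ran from 9 to 571 bp with a median of 125 bp. The site with the smallest overlap, chromosome 2 241191007 to 241191238, shared 9 bp with its GR peak and had summits 195 bp apart. The next ones were chromosome 17 80314179 to 80314286 (12 bp) and chromosome 2 130475551 to 130475760 (13 bp). Just outside the rule, the ER site at chromosome 12 53339401 to 53339496 missed its GR peak by a gap of 1 bp. The ER sites at chromosome 22 30608691 to 30608923 and chromosome 11 34652082 to 34652219 missed theirs by 11 and 12 bp. In all, 18 further ER sites lay under 100 bp from a GR peak, and 4 shared sites overlapped by 20 bp or less, so few sites sat near the limit.

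The summits of the 2 receptors lay close together, with a tail of wider pairs. The median distance between the ER summit and the nearest overlapping GR summit was 37 bp (29 to 40), and the middle 50% ran from 15 to 69 bp. Summits lay within 10 bp at 70 sites (19.6%, 15.6 to 24.1), within 25 bp at 149 (41.7%, 36.6 to 47.0), within 50 bp at 227 (63.6%, 58.4 to 68.6) and within 100 bp at 300 (84.0%, 79.8 to 87.7). The farthest pair was 481 bp apart. Overlap itself keeps the distance short: the median of the mean width of the 2 peaks was 193 bp, the separation at which peaks with central summits would stop touching. The 57 sites with summits over 100 bp apart had wide ER peaks (median 282 bp, against 176 bp for the 70 sites within 10 bp). With the combination, GR was called at 87.7% of these 57 sites and at 69.3% of the 300 closer ones (difference 18.4 points, 6.36 to 26.6), and ER at 86.0% and 77.3% (8.63 points, −3.48 to 17.1). The 57 sites were also the stronger ones, with median ranks at 32.8% of the ER list and 46.9% of the GR list. Calls were counted by overlap with the ER peak, and the parts of strength and of ER peak width in these differences were not tested.

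The strength of one receptor said little about that of the other at the same site. Strength is the rank by the authors' −log10 q within each list, which was used to describe sites and not to compare lists. Shared sites held 88, 94, 74 and 101 sites in the successive 25% parts of the ER list, from strongest to weakest, so they ran through the whole list. In the GR list they lay lower, with a median rank at 58.2% of the list against 48.4% for the other GR sites. The correlation between the ER and the GR rank was near 0 (Spearman rho 0.050, across 357 sites, which are not replicates). Only 16 sites fell in the strongest 25% of both lists and 32 fell in the weakest 25% of both.

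**Figure D1:**
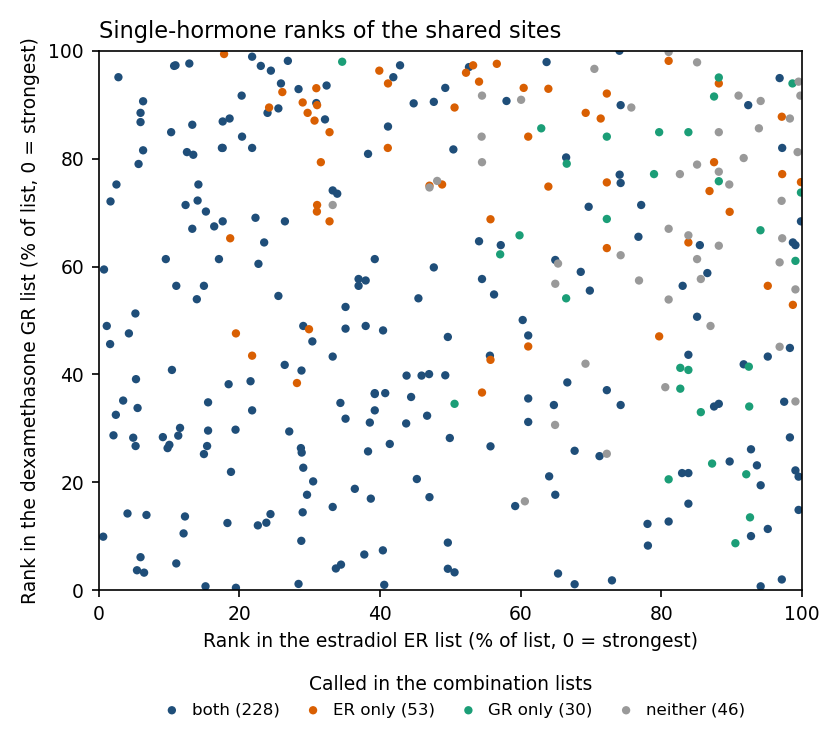
Each of the 357 shared sites by its rank in the estradiol ER list (x axis, % of the list, 0 strongest) and its rank in the dexamethasone GR list (y axis, same scale), coloured by whether the combination lists held ER and GR there. The points fill the square, and sites called for neither receptor (46) lie mostly at weak ER ranks, with a median at 84.5% of the ER list.

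The local background was high at shared sites. Background here is the control coverage implied by the deposited pileup and fold enrichment, in scaled fragments at the summit. Whether the receptor libraries' control was input DNA or an IgG precipitation is not given in the sources used here, and the control listed for H3K27ac is labelled as both. Its median was 1.00 at shared sites and 0.54 at the other ER sites in the estradiol ER list. In the dexamethasone GR list it was 2 at shared sites and 1.00 at the other GR sites. The ER list's median was exceeded at 76.8% of shared sites, and the GR list's at 77.9%. The part of this background in the results below was tested only by restricting the counts to sites with a low one.

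Most shared sites were called again for both receptors when the hormones were given together. Calls were counted by overlap with the ER peak, or with the GR peak where sites are counted as GR sites. ER was called in the combination list at 281 of the 357 (78.7%, 74.1 to 82.8), where 61.8% of all estradiol ER sites were called. GR was called in the combination list at 258 (72.3%, 67.3 to 76.9), where 19.7% of all estradiol ER sites were. Both receptors were called at 228 sites (63.9%, 58.6 to 68.9), against 18.5% of all estradiol ER sites. ER alone was called at 53 (14.8%, 11.3 to 18.96), against 43.3% of the list, and GR alone at 30 (8.40%, 5.74 to 11.8), against 1.21%. Neither receptor was called at 46 (12.9%, 9.59 to 16.8), against 37% of the list. Shared sites are GR sites by rule, so for GR the comparison is with the dexamethasone GR list. Counted as GR sites, 257 of the 364 (70.6%, 65.6 to 75.2) were called for GR with the combination, against 56.8% of that list, and 288 (79.1%) for ER, against 20.7%. Both receptors were called at 226 of the 364 (62.1%, against 17% of the list), ER alone at 62 (17.0%, against 3.69%), GR alone at 31 (8.52%, against 39.8%) and neither at 45 (12.4%, against 39.5%).

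At matched strength, shared sites were called again more often than other sites of the same list, except among the strongest. In the strongest 25% of the ER list all 88 shared sites and 98.8% of the other 806 were called for ER with the combination. In the next 25% the shares were 95.7% and 79.4%, a difference of 16.4 percentage points (9.64 to 20.3). They were 73.0% and 42.3% in the third part (difference 30.7, 19.1 to 40.1) and 48.5% and 17.9% in the weakest (30.6, 20.7 to 40.6). GR showed the same order. All 65 shared sites in the strongest 25% of the GR list were called again, beside 95.4% of the others, a difference whose interval includes 0 (4.62, −1.21 to 7.18). The shares were 83.9% and 60% in the second part (23.9, 13.8 to 31.9), 63.1% and 31.3% in the third (31.8, 20.1 to 42.4) and 50.0% and 21.2% in the weakest (28.8, 18.9 to 38.4). Over the whole lists, the difference was 18.8 points for ER (14.0 to 23.1) and 17.3 points for GR (11.8 to 22.4). Frequent ER calls were not particular to shared sites. At 445 other ER sites GR was called in the combination list and not in the dexamethasone list. ER was called with the combination at 97.1% of them, so shared sites were lower (−18.4 points, −23.1 to −14.0). These sites were chosen by a combination call, and shared sites were not. From strongest to weakest, their ER shares were 100%, 97.6%, 86% and 75%.

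**Figure D2:**
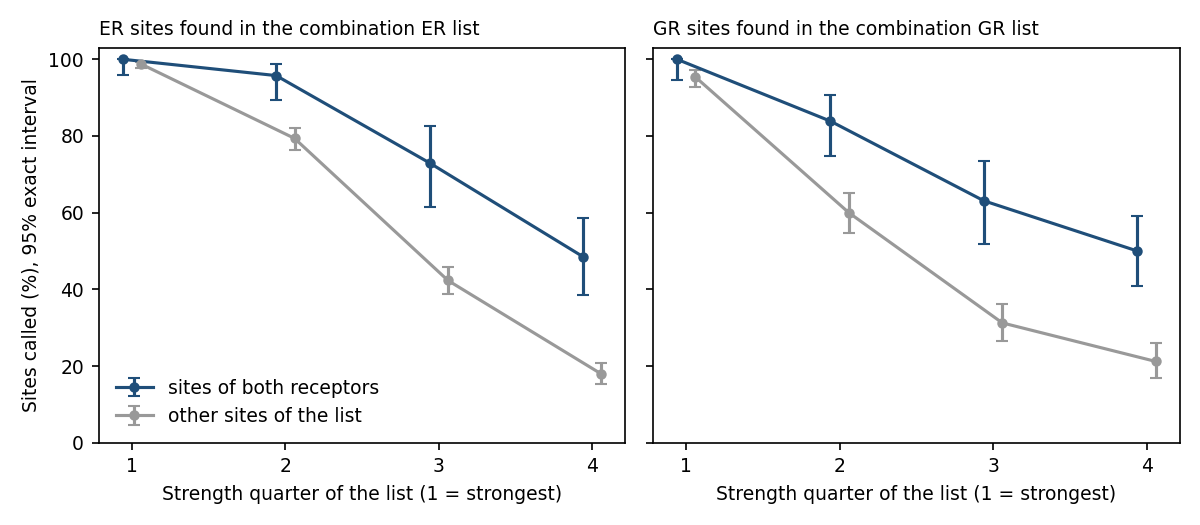
Share of sites (y axis, %) called again for the same receptor in the combination list, by strength in 4 equal parts of the single-hormone list (x axis), for ER on the left and GR on the right; points are shares and bars are exact 95% intervals over peaks. In the weakest part 48.5% of shared ER sites and 17.9% of other ER sites were called, and 50.0% and 21.2% of GR sites.

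Whether a weak GR site was called with the combination went with the strength of ER at the same place. Among shared sites whose GR peak ranked in the weaker 50% of the dexamethasone list, GR was called with the combination at 43 of 46 (93.5%, 82.1 to 98.6) where ER was in its strongest 25%. The share was 57.8% (42.2 to 72.3) in the second 25% of ER, 52.1% (37.2 to 66.7) in the third and 36.7% (24.6 to 50.1) in the weakest. The GR ranks of these 4 sets did not follow the same order: their medians were at 81.4%, 84.9%, 79.8% and 75.7% of the GR list. Between the stronger and the weaker 50% of ER the difference was 32.3 points (18.8 to 44.1). A combination GR call here is an overlap with the ER peak, not with the dexamethasone GR peak. The part of ER peak width in this difference was not tested. The reverse relation was smaller. Where the ER peak was in the weaker 50% of its list, ER was called with the combination at 80% of sites (61.4 to 92.3) with GR in its strongest 25% and at 49.2% (36.1 to 62.3) with GR in its weakest 25%. The difference between the stronger and the weaker 50% of GR was 18.3 points (3.33 to 31.7). The interval of each overlaps that of the other, and their difference was not tested. Among other GR sites, GR was called with the combination at 31.3% in the third 25% of that list and 21.2% in the weakest. The order was not particular to shared sites. At ER sites without a dexamethasone GR peak, GR was called at 36.7% in the strongest 25% of ER, then 10.4%, 6.05% and 2.08%. At the other GR sites, ER was called at 12.8% in the strongest 25% of GR, then 5%, 2.96% and 2.42%.

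The strongest shared sites were in all 4 receptor lists. All 16 sites in the strongest 25% of both single-hormone lists were called for both receptors with the combination, as were 87 of the 91 in the stronger 50% of both, taking for each site the GR peak with the nearest summit. Sites that were not shared, in the strongest 25% of their list, were called again for their own receptor at 98.8% (ER) and 95.4% (GR). Both receptors were called at 36.7% of these ER sites and 12.8% of these GR sites. Sites are named by the worse of their 2 ranks and by coordinates, since no gene annotation of this build was used. Fold enrichments are the authors' and compare a summit with its local control. The best of all, chromosome 16 88106895 to 88107117, had fold enrichments of 35.9 for ER with estradiol, 53.4 for GR with dexamethasone, 57.0 for ER with the combination and 47.7 for GR with the combination. Its single-hormone summits were 4 bp apart and its combination summits coincided, and of the 4 H3K27ac lists it was in that of the combination alone. The second, chromosome 2 28836977 to 28837279, had fold enrichments of 30.3, 30.7, 32.1 and 41.6 in the same order and lay in all 4 H3K27ac lists. The third, chromosome 7 76939184 to 76939611, had 35.7, 50.9, 64.5 and 55.1, with summits 7 bp apart with single hormones and 6 bp with the combination. All 3 sites had fold enrichments over 30 in each of the 4 receptor lists.

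The next 7 sites were more uneven. Chromosome 3 176931537 to 176931889 ranked 23 in the ER list and 180 in the GR list (fold enrichments 44.0 and 21.7). Chromosome 3 188665843 to 188666009 had the opposite balance, ranking 541 for ER (25.2) and 13 for GR (41.3), and lay in every H3K27ac list except vehicle. Chromosome 2 120470188 to 120470456 (26.5 and 42.0) was also absent from the vehicle H3K27ac list and present in the other 3. Chromosome 11 68890215 to 68890462 (20.5 and 21.4) had single-hormone summits 315 bp apart, which were 135 bp apart with the combination. Chromosome 3 194801283 to 194801923 (17.1 and 14.6), chromosome 16 16242116 to 16242362 (23.6 and 14.5) and chromosome 1 172320930 to 172321193 (30.8 and 27.1) were in all 4 H3K27ac lists.

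Sites that lost a receptor call were weaker ones, as their ranks show. The best site with ER alone in the combination lists, chromosome 3 134082962 to 134083224, ranked 1004 for ER and 697 for GR, with fold enrichments of 15.1 and 12.5, and had an ER fold enrichment of 10.1 with the combination. It was followed by chromosome 11 3021679 to 3022167 (20.7 and 10.2) and chromosome 18 3665809 to 3666008 (21.8 and 11.2). The best site with GR alone, chromosome 2 160012007 to 160012229, ranked 1802 for ER and 627 for GR (14.0 and 16.3), and had a GR fold enrichment of 8.9 with the combination. Next came chromosome 19 18398806 to 18398914 (14.2 and 11.8) and chromosome 12 6480561 to 6480673 (13.01 and 9.4). The best site with neither call, chromosome 14 68604521 to 68604610, was weak for ER (rank 2158, 13.7) and stronger for GR (rank 299, 20.8), with summits 173 bp apart. Chromosome 22 39688123 to 39688228 (10.8 and 11.1) and chromosome 5 123998019 to 123998176 (9.7 and 8.0) followed. The 3 named sites with neither call all lay in all 4 H3K27ac lists. Of all 46 sites with neither call 30 did, and of all shared sites 63.9% did. Median ranks in the ER list were 35.1% for sites called for both receptors, 54.1% for ER alone, 83.9% for GR alone and 84.5% for neither. In the GR list they were 41.8%, 79.3%, 64.0% and 73.4%.

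At the 228 sites in all 4 receptor lists the median spacing was 39 bp (32 to 47) with single hormones and 25 bp (20 to 29) with the combination. The combination spacing was the smaller at 139 sites (61.0%, 54.3 to 67.3), the larger at 82 and equal at 7. Among the 183 of these sites with single-hormone summits within 100 bp it was the smaller at 55.2% (47.7 to 62.5), an interval that includes equal shares. Each receptor's own summit moved little between treatments, by a median of 14 bp for ER (12 to 17) and 19 bp for GR (15 to 23). The fragment length that the peak caller estimated was 90 bp for ER with estradiol, 121 bp for ER with the combination, 93 bp for GR with dexamethasone and 94 bp for GR with the combination. Its part in the summit positions was not tested.

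At the 95 of these sites whose single-hormone summits were over 50 bp apart, the median spacing was 99 bp with single hormones and 47 bp with the combination, narrower at 77 and wider at 16. Choosing sites for a wide spacing favours a narrower second value, so this is a description. At the 133 closer sites the medians were 17 and 18 bp, and the combination spacing was the smaller at 62 and the larger at 66. In the 95 wide pairs the combination ER summit lay nearer to the estradiol ER summit at 83 sites and nearer to the dexamethasone GR summit at 12. The combination GR summit lay nearer to the dexamethasone GR summit at 60 sites and nearer to the estradiol ER summit at 35. The ER summit of these pairs moved by a median of 17 bp (14 to 28) between the treatments and the GR summit by 27 bp (20 to 42).

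**Figure D3:**
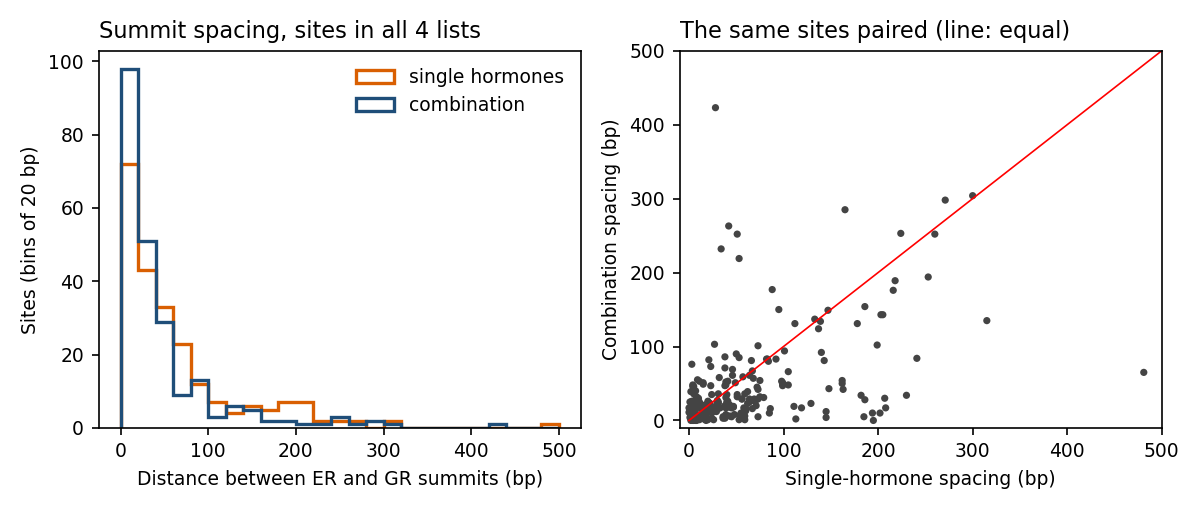
Distance in bp between the ER and the GR summit at the 228 shared sites in all 4 receptor lists: on the left as counts in bins of 20 bp for the single hormones and the combination, on the right for each site with its single-hormone (x axis) and combination spacing (y axis) and a line of equal values. Medians were 39 and 25 bp, and 139 of the 228 points lie under the line.

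Shared sites lay in acetylated chromatin far more often than either receptor's other sites, with or without hormone. With vehicle, 257 of the 357 (72.0%, 67.0 to 76.6) overlapped an H3K27ac peak, against 36.8% of all estradiol ER sites and 32.9% of the other 3203. The difference from the other ER sites was 39.1 points (34.0 to 43.8). At the 39 shared sites with a local background at or below the median of both receptor lists the vehicle share was lower, at 41.0% (25.6 to 57.9), and so were the estradiol (48.7%), dexamethasone (38.5%) and combination (61.5%) shares. With estradiol 274 did (76.8%, 72.0 to 81.0), against 50.6% of all ER sites, with dexamethasone 243 (68.1%, 63.0 to 72.9), against 27.5%, and with the combination 278 (77.9%, 73.2 to 82.1), against 46.5%. The differences from the other ER sites were 29.0 points (24.05 to 33.45), 45.1 points (39.8 to 49.9) and 34.9 points (30.01 to 39.3). Receptors were mapped at 1 h and H3K27ac at 8 h, so receptor binding at the time of the acetylation was not measured.

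The contrast with the other GR sites was as large. Counted as GR sites, 263 of 364 shared sites (72.3%) overlapped vehicle H3K27ac, against 37.2% of all dexamethasone GR sites, 286 (78.6%) estradiol H3K27ac, against 39.7%, 238 (65.4%) dexamethasone H3K27ac, against 36.9%, and 288 (79.1%) combination H3K27ac, against 43.9%. The differences from the 1451 other GR sites ran from 35.6 points (30.04 to 40.8, dexamethasone) to 48.6 points (43.5 to 53.1, estradiol). The contrast was also present at matched strength: within each 25% part of either list, all 32 differences over the 4 H3K27ac lists had intervals above 0, from 20.3 to 51.6 points. Among ER sites with a local background at or below the list's median, the vehicle difference was 35.9 points (24.98 to 46.2), and among GR sites it was 33.3 points (22.3 to 44.4).

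Shared sites also differed from the ER sites that had GR in the combination list but lacked it in the dexamethasone list. These 445 ER sites overlapped vehicle H3K27ac at 39.6% (35.0 to 44.3) and dexamethasone H3K27ac at 32.8% (28.5 to 37.4), so shared sites were higher by 32.4 points (25.7 to 38.7) and 35.3 points (28.5 to 41.5). In the lists with estradiol the gap was smaller. The 445 sites reached 67.9% with estradiol and 67.0% with the combination, below the shared sites by 8.89 points (2.64 to 14.9) and 10.9 points (4.68 to 16.9). The estradiol gap had an interval that included 0 within the strongest 25% of ER sites (7.52, −2.37 to 15.3), where most of the 445 sites lie. Above the median local background, where 274 of the shared sites lie, both gaps had intervals that included 0 (estradiol 3.65, −2.99 to 10.2, and combination 5.87, −1.01 to 12.6).

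**Figure D4:**
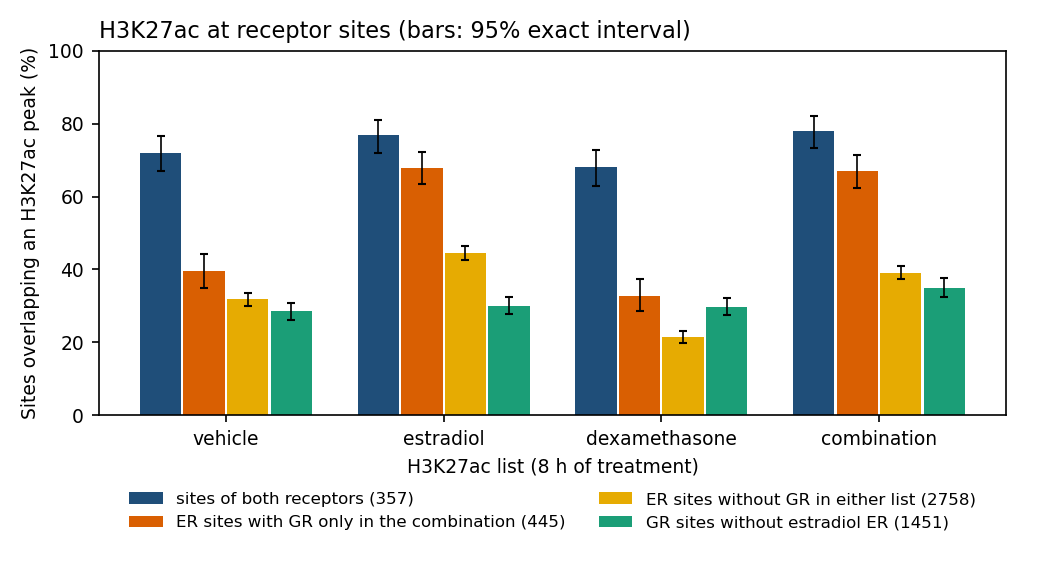
Share of sites (y axis, %) overlapping an H3K27ac peak in each of the 4 lists (x axis) for the shared sites, the ER sites with GR in the combination list alone, the ER sites without GR in either list and the GR sites without estradiol ER; error bars are exact 95% intervals over peaks. Shared sites stand between 68.1% and 77.9% in all 4 lists, and the 445 ER sites with GR in the combination alone stand at 32.8% to 39.6% without estradiol and at 67.0% to 67.9% with it.

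Most shared sites had an H3K27ac call in all 4 lists or in none, as did most sites of each single-hormone list. Calls do not measure the level of acetylation. In all 4 H3K27ac lists were 228 sites (63.9%, 58.6 to 68.9), against 25.4% of all ER sites, and in no list were 67 (18.8%, 14.9 to 23.2), against 45.2%. Counted as GR sites, 225 of the 364 were in all 4 lists (61.8%, against 29% of all GR sites) and 61 in none (16.8%, against 51.2%). Of the 67 ER sites in no list, 36 had no H3K27ac peak within 1 kb in any list either. The other 62 sites were in 1 to 3 lists. The largest such pattern was vehicle, estradiol and combination without dexamethasone, at 19 sites (5.32%), against 9.21% of the other ER sites and 3.51% of the other GR sites. It was led by chromosome 5 133802173 to 133802329, a strong GR site (rank 8 in the GR list, fold enrichment 72.5) with an ER fold enrichment of 21.8. The next was estradiol and combination alone, at 13 sites (3.64%), compared with 97 of the 445 ER sites with GR in the combination alone (21.8%). Against vehicle, estradiol added 22 shared sites and lacked 5, dexamethasone added 8 and lacked 22, and the combination added 26 and lacked 5. Such gains and losses were not totalled for the other sites, so no trait of shared sites is read from them. Over all ER sites the shares called were 36.8% (vehicle), 50.6% (estradiol), 27.5% (dexamethasone) and 46.5% (combination). Over all GR sites they were 37.2%, 39.7%, 36.9% and 43.9%, and such shares give the net change only. The dexamethasone list was the shortest of the 4 (15192 peaks against 20873 to 23888). At equal list length the 4 shares of the shared sites ran from 68.1% to 77.03%. The best site without H3K27ac in any list was chromosome 12 48240453 to 48240682, with fold enrichments of 22.2 for ER and 19.4 for GR with single hormones and 28.3 and 26.99 with the combination.

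The H3K27ac peaks that held shared sites were among the widest and strongest. Peaks were counted once for each site they held. In the vehicle list the median width was 3085 bp at shared sites, 2165.5 bp at ER sites with GR in the combination alone and 1749 bp at ER sites without GR in either list. The whole list had a median of 547 bp. The median rank at shared sites was at 3.78% of the vehicle list, and 178 of the 257 sites (69.3%) lay in peaks of its strongest 10%. So did 44.3% of the acetylated ER sites with GR in the combination alone, 42.3% of those without GR and 41.2% of acetylated GR sites without ER. In the combination list 78.1% of the acetylated shared sites did, with a median width of 4034 bp. There the ER sites with GR in the combination alone had 62.1% and 3037 bp, and those without GR 46.4% and 2071.5 bp. The 257 sites fell in 226 vehicle peaks, so some shared a domain. A wide peak is also met more easily by any site within it, and its part in the shares above was not tested.

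In the dexamethasone H3K27ac list the receptor summit more often fell in a gap between 2 peaks. The ER summit lay inside an H3K27ac peak at 65.5% of shared sites with vehicle, 72.0% with estradiol, 70.6% with the combination and 51.5% with dexamethasone. It lay outside, with a peak within 1 kb on both sides, at 36 sites with vehicle (10.1%, 7.16 to 13.7), 39 with estradiol (10.9%), 50 with the combination (14.0%) and 90 with dexamethasone (25.2%, 20.8 to 30.1). Counting H3K27ac within 1 kb of the ER peak accordingly raised the dexamethasone share most, to 83.5%, above the 81.0% of vehicle, with 86.8% for estradiol and 88.2% for the combination. The other ER sites stood at 35.7% (dexamethasone), 41.8% (vehicle), 60.1% (estradiol) and 56.6% (combination) within 1 kb. By overlap they stood at 23.0%, 32.9%, 47.7% and 43.0%, so there the combination share rose most. The other GR sites stood at 45.1%, 36.5%, 38.3% and 45.7% within 1 kb. Among these the dexamethasone share rose most, from 29.8%, as at shared sites. The gaps were not particular to shared sites. Of sites with H3K27ac within 1 kb of the summit, 30.2% (25.04 to 35.8) of shared sites had such a gap with dexamethasone, and so did 27.8% (24.9 to 30.8) of ER sites without GR in either list and 32.1% (28.5 to 35.8) of GR sites without ER. With vehicle the shares were 12.5%, 14.3% and 8.70%. The dexamethasone library had the fewest usable tags (9034395) and the shortest estimated fragment (232 bp, against 244 to 280 bp), and their part in the gaps was not tested. This measure was chosen after the shares at 1 kb had been seen.

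Shared sites that kept their GR call were less often acetylated with vehicle than those that did not. Vehicle H3K27ac was present at 175 of the 258 sites in the combination GR list (67.8%) and at 82 of the 99 outside it (82.8%), a difference of −15.0 points (−23.5 to −4.83). Put the other way, GR was called with the combination at 83 of the 100 sites without vehicle H3K27ac (83.0%) and at 175 of the 257 with it (68.1%), a difference of 14.9 points (4.80 to 23.4). Sites with vehicle H3K27ac had weaker GR ranks (median 61.4% of the list against 45.4%). Within the stronger 50% of GR sites the difference was 9.56 points (−0.83 to 17.8), and within the weaker 50% it was 12.8 points (−3.37 to 26.8), so neither interval excluded 0. ER showed a smaller difference, with 82.0% called without vehicle H3K27ac and 77.4% with it (4.57 points, −5.28 to 12.9). Of the 46 sites called for neither receptor, 37 (80.4%, 66.1 to 90.6) had vehicle H3K27ac, and of the 228 called for both, 154 did (67.5%, 61.0 to 73.6). Of the 228 sites in all 4 receptor lists, 140 were in all 4 H3K27ac lists and 47 in none. Of all 357 shared sites, 63.9% were in all 4 H3K27ac lists and 18.8% in none.

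**Figure D5:**
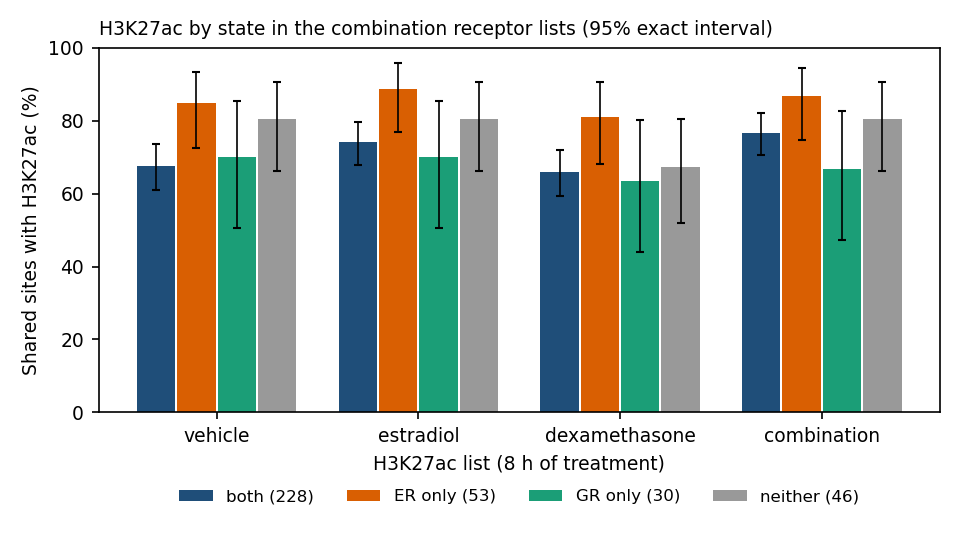
Share of shared sites (y axis, %) overlapping an H3K27ac peak in each list (x axis), by whether the combination receptor lists held both receptors, ER alone, GR alone or neither; error bars are exact 95% intervals over peaks. With vehicle the shares were 67.5%, 84.9%, 70% and 80.4%, and the intervals overlap.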

How the data were processed

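Peak lists of 8 ChIP-seq libraries were used. The submitters' processing notes name Bowtie 1.1.2, MACS2 2.1.0.20140616 and the build hg19. Each library was compared with a control at a p cutoff of 1e-10, with the larger library scaled towards the smaller, per the file headers. Whether a library pools cultures is not given in the sources used here. Deposited positions are 1-based. The deposited pileup is a coverage signal at the summit after scaling, the deposited fold enrichment is a ratio of summit pileup to local background, and the authors' −log10 q values ranked peaks within a list, although the file headers state that q was not computed. Implied local background was computed as (pileup + 1) / fold enrichment − 1.

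Overlap of at least 1 bp, exact Clopper-Pearson intervals and Newcombe intervals of differences were computed with Python 3.11.15, pandas 2.3.3 and scipy 1.17.1, and the overlap and interval code was tested on simulated data. Members, lists and tests were chosen with earlier results of these data known. Sites were named by a fixed rule: the 10 best by the worse of their 2 ranks, the 3 best in each combination state, the 3 nearest the overlap limit on each side, and the best of each H3K27ac pattern held by at least 5% of sites; groups of neighbouring sites were named after their values were seen. Motifs, gene names and sequences were not analysed here, since neither a genome nor gene models of hg19 were used. The comparison of summit spacing between the combination and single hormones, the position of summits relative to H3K27ac peaks, the calls split by the other receptor's strength and the splits by local background were chosen after values had been seen. The precision is limited by 1 library a group. The labels give 8 h for the H3K27ac treatments, while the treatment protocol gives 1 h for all; the former was used.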

Additional observations from a re-analysis of the deposited data

How the results depend on the processing

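No paired analysis was possible because each group held 1 library, and no replicate could be left out. With both single-hormone lists cut to their stronger 50%, 92 sites were shared, against 357, counting an overlap with any GR peak of the stronger 50%. Of those 92, the combination lists held ER at 100%, GR at 95.7%, both at 95.7% and neither at 0% (0 of 92 sites, an upper exact limit of 3.93%). Strong sites that were not shared were also often called again. In the stronger 50% of the ER list, ER was called at 98.8% of them in its stronger part and 79.4% in its weaker part. For GR in the GR list these shares were 95.4% and 60%. Such sites overlap no peak of the other single-hormone list, so their cut was on 1 list. Over all 357 shared sites, counting a combination summit within 100 bp gave ER at 73.9% and both at 55.7%. With the combination lists cut to their stronger 50%, ER was called at 46.8%, GR at 40.1%, both at 32.5% and neither at 45.7%. The other sites were not counted under either setting, so these shares have no comparison. H3K27ac within 1 kb gave 81.0% (vehicle), 86.8% (estradiol), 83.5% (dexamethasone) and 88.2% (combination), and requiring the ER summit inside the H3K27ac peak gave 65.5%, 72.0%, 51.5% and 70.6%.

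For 14 differences between shared and other sites, the 4 strength parts and the local-background splits gave 84 alternatives (the latter added after the data had been seen), of which 79 kept their direction and their side of 0, 5 kept their direction with an interval that included 0, and 0 reversed. The 5 were the ER call (1.24 points) and the GR call (4.62) with the combination in the strongest 25%, and the gap to ER sites with GR in the combination alone: for estradiol H3K27ac in the strongest 25% (7.52) and above the median local background (3.65), and for combination H3K27ac above it (5.87). The cause was not tested.

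A setting added after the data had been seen kept the 39 shared sites with a local background at or below the median of both lists. GR was called with the combination at 89.7% of them, both receptors at 76.9% and neither at 5.13%. H3K27ac was present at 41.0% (vehicle), 48.7% (estradiol), 38.5% (dexamethasone) and 61.5% (combination). Sites that were not shared could be limited by the median of their own list only. GR was called with the combination at 58.4% of such GR sites. H3K27ac was present at 20.7% (vehicle), 34.0% (estradiol), 15.3% (dexamethasone) and 30.5% (combination) of such ER sites.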

Other observations

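Some shared sites lay close to each other. With summits joined in steps of up to 10 kb, the 357 sites formed 302 groups: 255 sites stood alone, 42 groups held 2 sites, 2 held 3 and 3 held 4. Thus 102 shared sites (28.6%) had a shared neighbour within 10 kb, and 33.41% of the other ER sites had another such ER site as near. The other ER sites are the larger set (3203 against 357), where a neighbour is met more easily, so these shares do not compare clustering. On chromosome 11, 4 sites between 69042135 and 69054833 were each called for both receptors with the combination and lay in all 4 H3K27ac lists; their ER fold enrichments with estradiol were 8.0, 7.6, 10.4 and 22.6 and their GR fold enrichments with dexamethasone were 13.8, 29.1, 17.9 and 10.0. On chromosome 12, the 4 sites between 6480561 and 6485559 differed among themselves: 2 were called for both receptors with the combination, 1 for ER alone and 1 for GR alone. On chromosome 5, the 4 sites between 123991744 and 123998176 lay in all 4 H3K27ac lists, but none was called for both receptors with the combination: 2 were called for GR, 1 for ER and 1 for neither. On chromosome 18, the middle one of 3 neighbouring sites, 3540878 to 3541181, was a strong ER site with estradiol (rank 60, fold enrichment 36.3) and a weak GR site with dexamethasone (rank 1308, 6.5), and its GR fold enrichment with the combination was 56.8.

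Shared sites were found on 23 chromosomes, the X included. Their share of the estradiol ER sites ran from 1 of 84 on chromosome 20 (1.19%, 0.0301 to 6.46) to 33 of 173 on chromosome 12 (19.1%, 13.5 to 25.7), around 10.0% over all. These extremes were picked out of the 23 after their values were seen.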
